A study of Rattus norvegicus with 12 samples.

Results

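Stab1 and 8 other receptors through which macrophages take up waste were followed in fracture hematoma from old and young rats. Stab1 was chosen because its signal was low in old rats with rigid fixation, and the others (Mrc1, Msr1, Marco, Cd36, Lyve1, Folr2, Colec12 and Cd68) were chosen by name to ask whether they shared that pattern. Of these 9 genes, 7 had a probe set of a single gene symbol, among 14217 genes with such a probe set. Msr1 and Marco were not analysed here. For each gene the probe set of highest mean over the 12 arrays was used.

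Female Sprague-Dawley rats had an osteotomy of the femur held at a gap of 1.5 mm by an external fixator, and RNA of the hematoma was measured at day 3 on rat expression arrays with 1 colour. The old rats were 52 weeks of age with rigid fixation (OR) or semi-rigid fixation (OSR), and the young rats were 12 weeks of age with rigid fixation (YR) or semi-rigid fixation (YSR). Rigid fixators stood 7.5 mm from the bone and semi-rigid ones 15 mm. Each group had 3 arrays, each of RNA pooled from 3 animals, so that the spread between arrays is a spread between pools. All rats had the osteotomy and none of the groups was unoperated.

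Scavenger receptors bind modified lipoproteins, collagen fragments, glycans and dying cells and carry them to the lysosome. Stabilin-1, the product of Stab1, takes up SPARC and chitinase-like proteins and shuttles between endosomes and the trans-Golgi network in alternatively activated macrophages and sinusoidal endothelium. Several of these receptors are used as markers of tissue-resident or alternatively activated macrophages, which clear debris in a wound.

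The promoters of Stab1 and of the 3 other receptors with the largest differences in OR are given first, since these are the members that the values below turn on. Each is the 250 bases before the start of the gene (RefSeq, build GRCr8). Their positions are chr16:6367360-6367609, minus strand for Stab1, chr17:82157475-82157724, plus strand for Mrc1, chr1:174410978-174411227, minus strand for Lyve1 and chr1:165630383-165630632, minus strand for Folr2. Capitals mark GAGGAA, the core of sites bound by the macrophage factor PU.1, and TGCTGA, a half-site of the MAF factors, on either strand (TTCCTC and TCAGCA on the other).
Stab1: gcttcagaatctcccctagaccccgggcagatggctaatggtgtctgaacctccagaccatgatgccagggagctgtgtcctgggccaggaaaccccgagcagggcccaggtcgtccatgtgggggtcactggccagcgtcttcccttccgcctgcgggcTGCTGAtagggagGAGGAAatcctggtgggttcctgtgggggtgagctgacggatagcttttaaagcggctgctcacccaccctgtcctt
Mrc1: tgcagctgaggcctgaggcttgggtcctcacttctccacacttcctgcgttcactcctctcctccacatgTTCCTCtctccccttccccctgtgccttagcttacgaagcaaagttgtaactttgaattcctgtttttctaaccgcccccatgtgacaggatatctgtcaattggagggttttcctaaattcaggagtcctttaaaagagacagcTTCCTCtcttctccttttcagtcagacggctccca
Lyve1: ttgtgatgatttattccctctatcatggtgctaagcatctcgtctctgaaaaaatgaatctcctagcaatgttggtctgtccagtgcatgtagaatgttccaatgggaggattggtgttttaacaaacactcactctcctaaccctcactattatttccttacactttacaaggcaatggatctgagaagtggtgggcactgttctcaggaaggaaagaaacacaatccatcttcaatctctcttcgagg
Folr2: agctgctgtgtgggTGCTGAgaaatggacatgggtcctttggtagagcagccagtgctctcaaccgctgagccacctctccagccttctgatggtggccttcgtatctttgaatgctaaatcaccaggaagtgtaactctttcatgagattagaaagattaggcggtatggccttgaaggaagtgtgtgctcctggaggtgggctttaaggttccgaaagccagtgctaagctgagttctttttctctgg
Both motifs were chosen after the sequences and the values of Maf had been seen. In the window of Stab1 the PU.1 core began 77 bases and the MAF half-site 90 bases before the start. Mrc1 held the PU.1 core at 180 and at 35 bases, Folr2 held the MAF half-site at 236 bases, and Lyve1 held neither run of letters in this window. Of the 8 members listed with a promoter, 6 held the PU.1 core, against 23.3% of 33469 promoters, and 2 held the MAF half-site, against 15.1%. The promoters are described by their letters only.

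All 7 measured receptors were bright. The mean of each lay between the 95.8th (Lyve1) and the 99.2nd percentile (Cd68, a lysosomal glycoprotein of macrophages) of the probe sets tested. The macrophage markers Lyz2 and Gpnmb averaged 15.14 and 15.17 log2 signal over the 12 arrays, and Csf1r, the receptor for the macrophage growth factor CSF1, averaged 12.78. The group means of Csf1r lay between 12.61 (OR) and 12.96 (YSR). In OR minus YR, Lyz2, Gpnmb and Csf1r differed less in size (0.17, −0.02 and −0.19) than the median of the macrophage list given below (−0.37). Of the 19 genes measured in that list, 14 had a lower OR mean than YR, so these markers do not show an even macrophage content.

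Before the comparisons, 2 arrays need to be named. The log2 ratio of the 3′ to the 5′ control probe set of Gapdh, which rises as RNA breaks down, was 6.69 on YSR array 1 and 2.95 on OR array 1. It was 1.02 to 1.59 on the YR arrays and 0.33 to 0.49 on the other 7. The ratio therefore differed between OR arrays 2 and 3 and all YR arrays, while these 2 OR arrays (0.43 and 0.46) lay within the range of the OSR arrays (0.33 to 0.49). The part of RNA quality in OR minus YR was not tested. Values without OR array 1 and YSR array 1 are given where they bear on a result.

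Stab1 gave signals of 2755, 2881 and 3025 in OR, 4170, 5379 and 6052 in OSR, 7230, 6931 and 7034 in YR, and 5831, 5558 and 6236 in YSR. All OR arrays lay below the other 9, and the YR arrays lay above all others. The log2 signal averaged 11.49 ± 0.068 in OR, 12.33 ± 0.27 in OSR, 12.79 ± 0.031 in YR and 12.52 ± 0.083 in YSR (SD, n = 3 each). The difference was −1.29 in OR minus YR (a ratio of 0.408) and −0.83 in OR minus OSR, while YR minus YSR was 0.27. OSR minus YSR was −0.19, with overlapping arrays. The gene was chosen for its pattern over these groups, so its values are a description and carry no test.

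**Figure D1:**
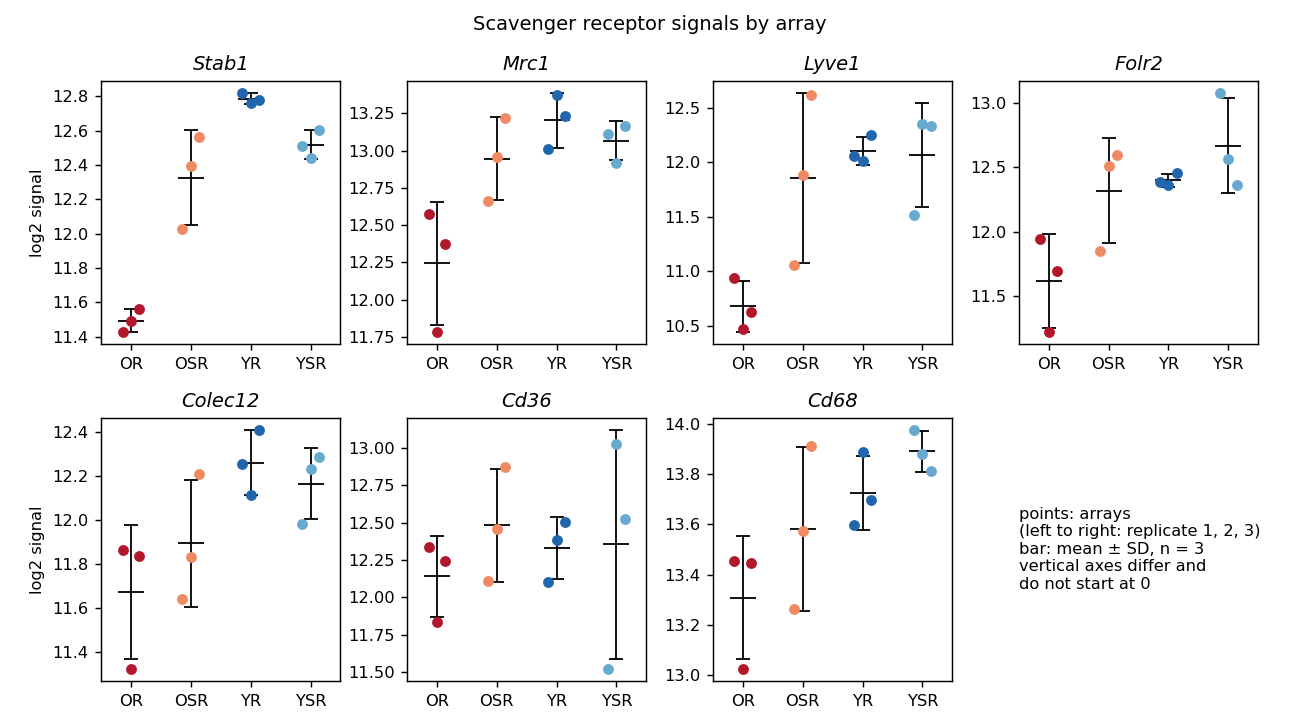
Log2 signal of the 7 measured receptors on each array in OR, OSR, YR and YSR, with group mean and SD (n = 3 each) and a vertical axis of its own for each gene. The OR mean is the lowest of the 4 in all 7 panels, and the OR arrays of Stab1, Mrc1 and Lyve1 lie below all other arrays.

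Mrc1 encodes the mannose receptor CD206, which takes up glycoproteins and collagen. Its log2 signal was 12.58, 11.78 and 12.37 in OR, 12.66, 12.96 and 13.22 in OSR, 13.01, 13.37 and 13.23 in YR, and 13.11, 12.92 and 13.17 in YSR. The OR arrays lay below the other 9, with OR array 2 the lowest. OR minus YR was −0.96 ± 0.20 (SE), a ratio of 0.514, and did not pass the threshold over all probe sets (limma, unadjusted p = 0.000391, adjusted p = 0.207). OR minus OSR was −0.70 ± 0.20 (adjusted p = 0.872). Without OR array 1 and YSR array 1 the differences were −1.13 and −0.87.

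Lyve1 encodes a hyaluronan receptor of lymphatic endothelium that also marks a class of resident macrophages. Its log2 signal was 10.94, 10.47 and 10.63 in OR, 11.06, 11.88 and 12.62 in OSR, 12.05, 12.01 and 12.25 in YR, and 11.52, 12.36 and 12.33 in YSR. OSR array 1 stood nearest to the OR arrays, and the OSR arrays were spread more widely than those of any other group. OR minus YR was −1.43 ± 0.32 (SE), a ratio of 0.372 and the largest in size among the receptors, with an adjusted p of 0.237 from limma. It passed when only the OR and YR arrays were fitted (adjusted p = 0.0204). Over the 22 alternatives the adjusted p ran between 0.0204 and 0.655. OR minus OSR was −1.18 ± 0.32 (adjusted p = 0.872). A second probe set of Lyve1 gave −1.65 in OR minus YR and −1.43 in OR minus OSR, and its OR arrays lay below those of YR and of OSR but not below YSR array 1.

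Folr2 encodes folate receptor beta, another marker of resident macrophages. Its log2 signal was 11.94, 11.22 and 11.69 in OR, 11.85, 12.51 and 12.60 in OSR, 12.39, 12.36 and 12.46 in YR, and 13.08, 12.57 and 12.36 in YSR. OR and YR arrays did not overlap, whereas OSR array 1 lay below OR array 1. OR minus YR was −0.79 ± 0.23 (SE) with an adjusted p of 0.355, and OR minus OSR was −0.70 ± 0.23 with an adjusted p of 0.896 (limma).

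Colec12 encodes a collectin of the class A scavenger receptors, found on endothelium and stromal cells as well as macrophages. Its mean log2 signal was 11.68 ± 0.30 in OR, 11.89 ± 0.29 in OSR, 12.26 ± 0.15 in YR and 12.17 ± 0.16 in YSR (SD, n = 3 each). OR minus YR was −0.59 ± 0.18 (SE, adjusted p = 0.367) without overlap, and OR minus OSR was −0.22 ± 0.18 (adjusted p = 0.912) with overlap. Cd68 averaged 13.31 ± 0.25 in OR, 13.58 ± 0.33 in OSR, 13.73 ± 0.15 in YR and 13.89 ± 0.082 in YSR. Its OR arrays lay below the YR arrays (−0.42 ± 0.17, SE, adjusted p = 0.555) and overlapped with OSR (−0.27 ± 0.17, adjusted p = 0.905).

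Cd36, a class B scavenger receptor for oxidized lipoproteins and fatty acids, showed the smallest difference of the receptors in OR minus YR. Its log2 signal was 12.34, 11.84 and 12.25 in OR, 12.11, 12.46 and 12.87 in OSR, 12.10, 12.38 and 12.50 in YR, and 11.52, 13.02 and 12.52 in YSR. The groups overlapped, and YSR held both the lowest and the highest array. OR minus YR was −0.19, with a 95% confidence interval of −0.87 to 0.49 that leaves room for a difference as large as that of Folr2 or Colec12 (limma, adjusted p = 0.921). A further probe set, annotated to Cd36 and Cd36l1 together, gave −0.12 with overlapping arrays.

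Among the 6 receptors other than Stab1, none passed an adjusted p of 0.05 from limma in any of the 4 pairs of groups, for age or for the interaction. Over all probe sets the share that passed was 0.00322% in OR minus YR and in OSR minus YSR, 0.00644% for age and 0% in OR minus OSR, YR minus YSR and the interaction. The 1 probe set that passed in OR minus YR was that of Stab1, and it was also 1 of the 2 that passed for age. Stab1 was chosen for its pattern over these groups, so neither pass counts as a test. It did not pass in OR minus OSR or in the interaction. With no intensity trend, or with the methods' t-test, no probe set passed in OR minus YR. In OR minus YR all 6 had a lower OR mean, where 45.8% of all probe sets did, and 5 of the 6 had an unadjusted p under 0.05 in that direction, where 3.54% of all probe sets did. The OR arrays of 5 of the 6 lay below all YR arrays, where 6.04% of all probe sets did. The median difference was −0.69, against 0.04 over all probe sets. In OR minus OSR, 3 of the 6 had an unadjusted p under 0.05 in that direction (2.43% of all probe sets), the arrays of 2 did not overlap (5.04%), and the median was −0.52, against 0.011 over all probe sets. All 6 are bright. Of the 15521 probe sets at or above the median level, 5.04% were lower at that p in OR minus YR (median 0.0021). In OR minus OSR 3.06% of these were (median 0.0016). The comparisons OR minus YR and OR minus OSR share the OR arrays, so they are not separate evidence. The smallest exact two-sided permutation p for 3 arrays against 3 is 0.1, and Mrc1 and Lyve1 reached it in both comparisons, and Folr2, Colec12 and Cd68 in OR minus YR.

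The pairs without OR gave medians of smaller size, though this did not hold for each receptor. For Colec12 and Cd68, OSR minus YSR (−0.27 and −0.31) was larger in size than OR minus OSR (−0.22 and −0.27). In OSR minus YSR none of the 6 had an unadjusted p under 0.05 in either direction (2.33% of all probe sets did in the lower and 2.03% in the higher direction) and the median was −0.24. In YR minus YSR likewise none did (2.77% in the lower and 1.60% in the higher direction) and the median was 0.005. Averaged over fixation, old minus young had 5 of the 6 at that limit in the lower direction, with a median of −0.49. Of all probe sets 3.89% were lower at that limit, and 5.85% of those at or above the median level. This comparison and the interaction both use the OR arrays, so they are not separate evidence from OR minus YR. The interaction of age and fixation, coded as OR minus YR less OSR minus YSR, had 2 of the 6, Mrc1 at −0.84 ± 0.28 and Lyve1 at −1.21 ± 0.46 (SE, adjusted p = 0.99 for both in limma), where 1.43% of all probe sets did.

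**Figure D2:**
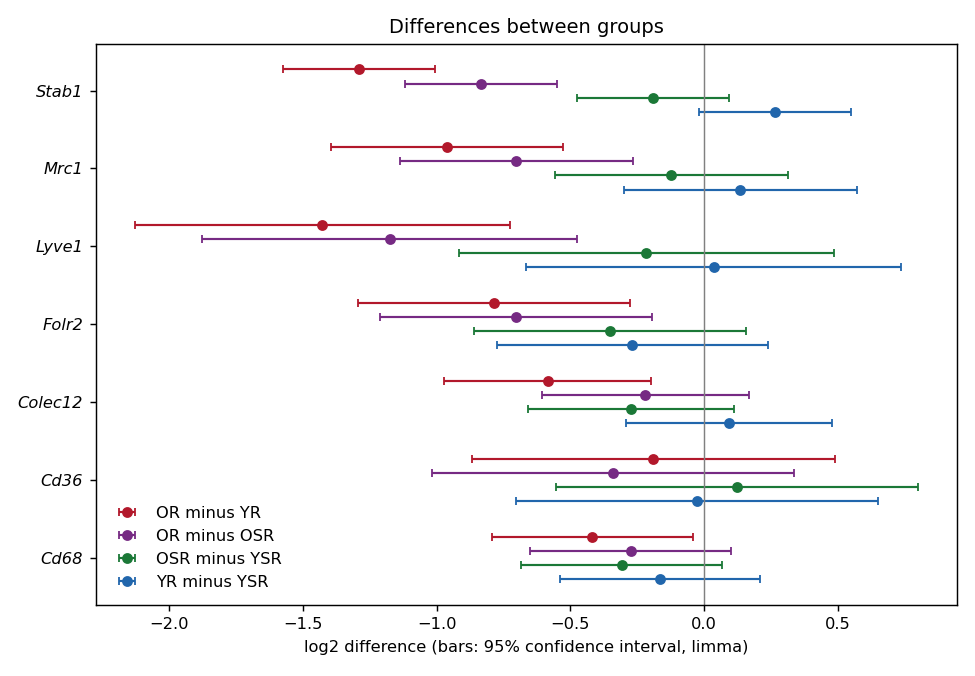
Log2 difference of each receptor in OR minus YR, OR minus OSR, OSR minus YSR and YR minus YSR (points), with the 95% confidence interval of limma (bars). Among the 6 receptors other than Stab1, the interval in OR minus YR excludes 0 for all but Cd36, and the interval in OSR minus YSR includes 0 for all 6. Stab1 was chosen for its pattern and is shown as a description.

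OR had the lowest of the 4 group means for all 6 receptors other than Stab1, where it did for 26.0% of all probe sets. The order of the other groups varied. YR was highest, followed by YSR and OSR, for Stab1, Mrc1, Lyve1 and Colec12. YSR was highest for Folr2 and Cd68, and OSR for Cd36. For Mrc1, Lyve1 and Colec12 the means of YR and YSR did not differ beyond their spread. Of the 6 receptors other than Stab1, Mrc1 and Lyve1 had all OR arrays below the other 9 (2 of 6), where 0.805% of all probe sets did.

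General markers of monocytes and macrophages had a smaller median difference than the receptors. Of 19 measured, 14 had a lower OR mean than YR (45.8% of all probe sets did), 4 with an unadjusted p under 0.05 (3.54%), and the median was −0.37. Fcgr1a, the high-affinity receptor for immunoglobulin G, had an OR minus YR of −0.72 (adjusted p = 0.318), and Cd163, the hemoglobin-haptoglobin receptor, −0.99 (adjusted p = 0.535). Adgre1, which encodes F4/80, had −0.91 ± 0.70 (SE, adjusted p = 0.779), with an SD of 1.99 in YSR. Without OR array 1 and YSR array 1 its value was −0.95 ± 0.30 (SE, limma, adjusted p = 0.326). Lyz2, Gpnmb and Csf1r had 0.17, −0.02 and −0.19, all smaller in size than the list median. Aif1, Trem2 and Tyrobp, picked after their values had been seen, had −0.52, −0.66 and −0.70 (limma, adjusted p = 0.446, 0.558 and 0.677). In the other direction, 5 of the 19 genes had a higher OR mean than YR. The mean log2 signal of these 19 genes was 10.85, 10.68 and 11.40 on OR arrays 1, 2 and 3. It ranged over 11.16 to 11.43 in OSR, 11.17 to 11.34 in YR and 11.37 to 11.51 in YSR. OR arrays 1 and 2 therefore lay below all arrays of the other groups, and only OR array 3 overlapped with them. In these bulk samples fewer macrophages and less RNA of these genes per macrophage cannot be told apart.

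When the mean of the 19 macrophage genes was subtracted on each array, which was tried only once the values were known, OR minus YR of the receptors was smaller in size. It was then −1.02 for Stab1, −1.16 ± 0.31 for Lyve1, −0.69 ± 0.22 for Mrc1 and −0.51 ± 0.25 for Folr2 (SE). It was −0.31 for Colec12, −0.15 for Cd68 and 0.083 for Cd36. The mean of the 19 genes was 10.98 in OR and 11.25 in YR. The subtraction thus raised OR minus YR of every gene by the same amount, and the smaller sizes follow from that. The count of receptors other than Stab1 at an unadjusted p under 0.05 became 2 of 6 in OR minus YR, where 0.899% of all probe sets were lower at that limit, and 1 of 6 in OR minus OSR, where 0.499% were. The subtraction moved the median of all probe sets to 0.31 in OR minus YR and 0.33 in OR minus OSR.

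**Figure D3:**
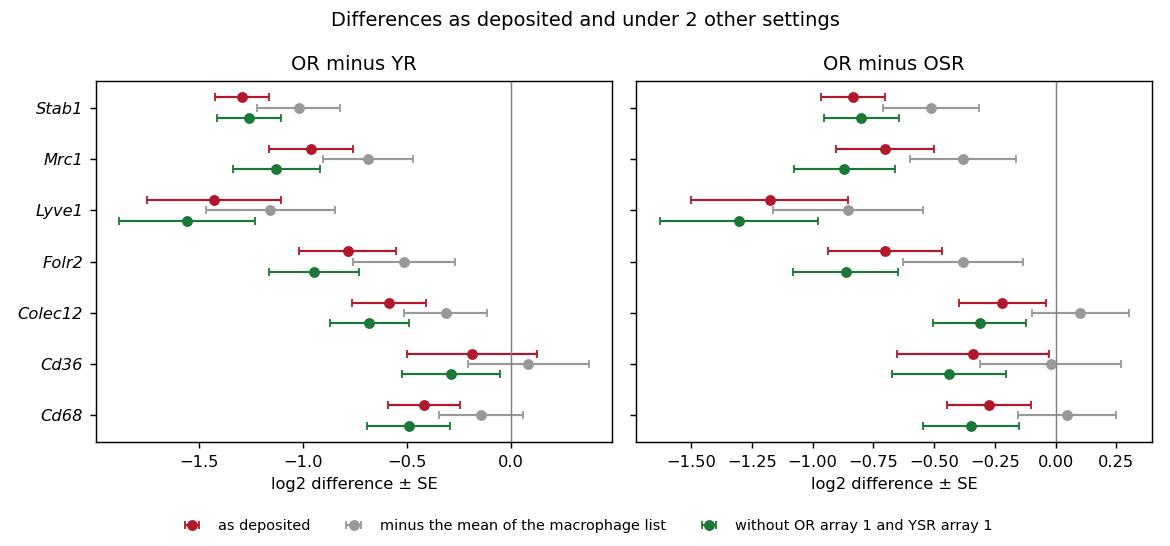
Log2 difference of each receptor (points, with SE as bars) in OR minus YR and in OR minus OSR, as deposited, after subtraction of the mean of 19 macrophage genes, and without OR array 1 and YSR array 1. The panels have horizontal axes of their own. Lyve1 lies farthest below 0 in both panels under all 3, and Cd36, Colec12 and Cd68 lie near 0 after the subtraction in OR minus OSR.

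Genes of resident and alternatively activated macrophages had a median of −0.46 in OR minus YR. Of the 17 measured, 6 were at an unadjusted p under 0.05 in the lower direction (3.54% of all probe sets) and 1 (Tgm2, a transglutaminase, at 0.37) in the higher (4.80%). Maf, a transcription factor of resident macrophages, had −1.10 ± 0.23 (SE, adjusted p = 0.207) in OR minus YR and −0.90 (adjusted p = 0.872) in OR minus OSR. Selenop, a secreted selenium carrier, had −0.98 ± 0.19 (adjusted p = 0.203), and the chemokine Ccl24 had −1.40 ± 0.56 (adjusted p = 0.542).

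The wider class of scavenger and apoptotic cell receptors had no common direction. Of 19 measured, 9 had a lower and 10 a higher OR mean than YR, 3 in each direction at an unadjusted p under 0.05 (3.54% of all probe sets in the lower and 4.80% in the higher), and the median was 0.0039. Cd14, the co-receptor for lipopolysaccharide, averaged 12.53 ± 0.49 in OR and 13.30 ± 0.20 in YR (SD, n = 3 each; adjusted p = 0.346). Mertk, which binds dying cells, had −0.60. Cd5l, a secreted protein of macrophages, averaged 9.91 ± 0.46 in OR and 8.05 ± 0.63 in YR, a difference of 1.86 (adjusted p = 0.364). Stab2, the sister gene of Stab1 and a hyaluronan receptor of sinusoidal endothelium, was dim, with a mean of 6.83 over the 12 arrays where the median probe set had 7.16, and had a difference of 1.77. Scara5, Tyro3 and Clec4m, also with a higher OR mean, and Ager, with a lower one, were below the median probe set too. The receptors studied were all bright, so the 2 lists differ in level. Mertk and Stab2 were picked after their values had been seen.

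Ligands and sorting partners of stabilin-1 were listed separately. Sparc, which encodes a matrix protein that it takes up, averaged 13.84 ± 0.28 in OR and 13.31 ± 0.25 in YR (SD, n = 3 each; OR minus YR 0.52, adjusted p = 0.535). Gulp1, an adaptor for engulfment, had 0.60 (adjusted p = 0.564), and Chid1, a chitinase-like ligand, had −0.25 (adjusted p = 0.645). Of the 8 genes in this list, 2 had an unadjusted p under 0.05, both in the higher direction (4.80% of all probe sets), and none in the lower (3.54%).

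Stab1 and Lyve1 are also known from endothelium, whose markers had differences of the opposite sign. All 12 endothelial genes measured had a higher OR mean than YR, where 45.8% of all probe sets had a lower one. Of the 12, 8 had an unadjusted p under 0.05 (4.80% of all probe sets did in that direction), and the median was 0.80. The angiopoietin receptor Tek averaged 10.79 ± 0.62 in OR and 9.45 ± 0.10 in YR (SD, n = 3 each), and von Willebrand factor, Vwf, 9.83 ± 0.51 in OR and 8.45 ± 0.86 in YR. The tight junction gene Cldn5 had 0.94. None of the 3 passed the threshold (limma, adjusted p = 0.318, 0.398 and 0.617). Over the list, the mean log2 signal was 9.69 to 10.61 in OR, 9.08 to 10.02 in OSR, 9.13 to 9.52 in YR and 9.10 to 9.40 in YSR. Of 6 genes of lymphatic endothelium, 2 were at an unadjusted p under 0.05 in each direction (3.54% of all probe sets in the lower and 4.80% in the higher). Pdpn, which is also found on macrophages and fibroblasts, had −1.17 ± 0.26 (SE, adjusted p = 0.223), and the lymphatic chemokine Ccl21 had −2.51 (adjusted p = 0.353). The matrix protein gene Reln had 1.21 (adjusted p = 0.343), and Nrp2, a co-receptor for lymphatic growth factors picked after its value had been seen, had 0.84. Prox1 and Flt4, which define lymphatic endothelium, were dim at means of 6.44 and 5.76, below the median probe set.

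The lists of adipocytes, platelets and megakaryocytes, osteoclasts, neutrophils and fibroblasts had medians of 0.76, 1.05, 0.60, 1.49 and 0.43 in OR minus YR. At an unadjusted p under 0.05, 5 of 9, 1 of 6, 3 of 6, 4 of 6 and 6 of 10 of their genes were higher and none was lower (4.80% of all probe sets were higher and 3.54% lower). Adipoq, the adipocyte hormone adiponectin, averaged 9.42 ± 0.75 in OR and 5.89 ± 1.10 in YR (SD, n = 3 each; adjusted p = 0.247). Of the brighter adipocyte genes, Cfd, which encodes adipsin, had 1.00 (adjusted p = 0.413) and Lpl, lipoprotein lipase, had −0.29 (adjusted p = 0.858). Fabp4, a fatty acid carrier also found in macrophages and endothelium, had 0.15, and it was picked after its value had been seen. Acp5, the acid phosphatase of osteoclasts, averaged 11.75 ± 0.59 in OR and 10.25 ± 0.092 in YR (adjusted p = 0.146), and cathepsin K, Ctsk, had 0.88 (adjusted p = 0.401). The platelet genes Itgb3, Itga2b and Ppbp had 1.88, 1.10 and 1.52 (adjusted p = 0.408, 0.738 and 0.604), and Itgb3 is also in the osteoclast list. The neutrophil genes Lcn2, Camp and S100a8 had 2.28, 2.03 and 1.61 (adjusted p = 0.436, 0.577 and 0.512). The fibroblast genes Thy1, Postn and Fap had 1.18, 0.94 and 0.84 (adjusted p = 0.353, 0.572 and 0.344). The mean log2 signal of the adipocyte list ranged over 8.83 to 9.40 in OR, 8.08 to 8.80 in OSR, 7.41 to 8.26 in YR and 7.86 to 8.31 in YSR. The part of these cells in the receptor values was not tested.

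**Figure D4:**
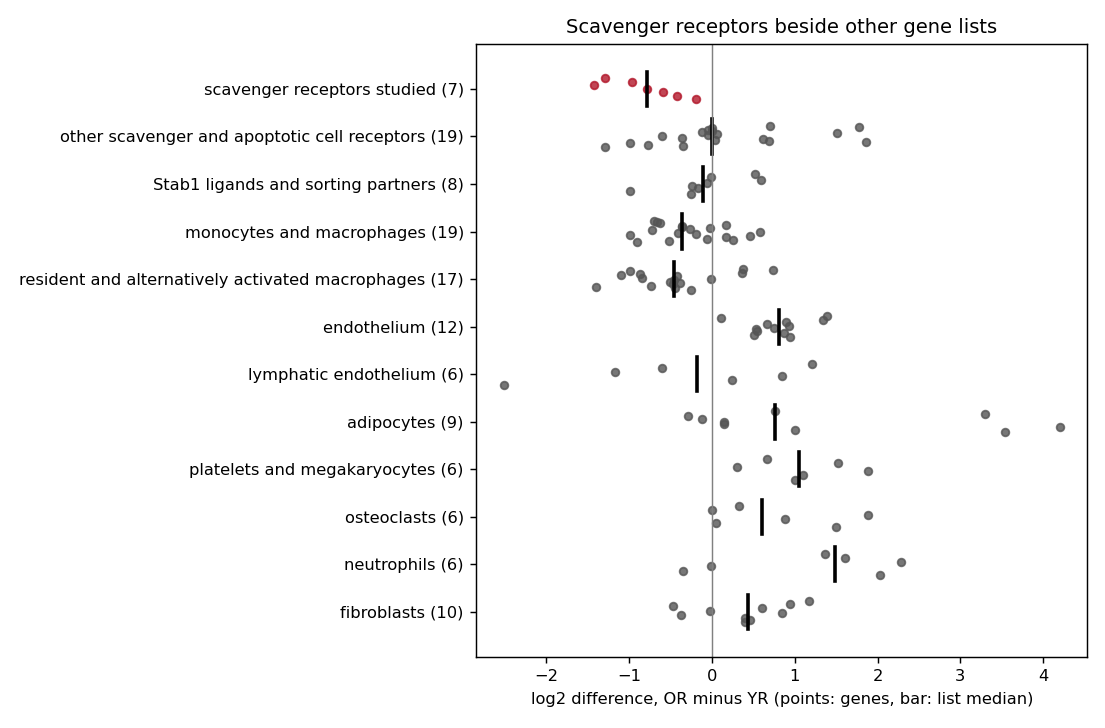
Log2 difference OR minus YR of each gene (points) in the receptors studied and in 11 other lists, with the number of measured genes after each name and the list median as a bar. The receptors studied lie between −1.43 and −0.19, where the Stab1 point chose the gene, while all endothelial genes lie above 0.

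The genes whose log2 signal was most alike to Stab1 over the 12 arrays were Rab11fip5 (Pearson r = 0.936), Selenop (0.933), C1h16orf54 (0.927), Ubap2l (0.921), Tmem50a (0.914), Slc28a2 (0.899), Ms4a6bl1 (0.897), Snx1 (0.894), Dnase2 (0.894) and Apobec1 (0.89). Rab11fip5 and Snx1 encode proteins of endosomal transport, Dnase2 the acid nuclease of lysosomes and Slc28a2 a nucleoside transporter. The ranking covered 12366 probe sets with a single symbol and a mean at or above the median. Lyve1 stood at rank 13 (r = 0.887) and Mrc1 at rank 14 (r = 0.884), followed by Colec12 at 128 (0.791), Folr2 at 144 (0.782), Cd68 at 256 (0.744) and Cd36 at 3353 (0.273). With group means removed, r with Stab1 was 0.72 for Lyve1, 0.61 for Cd68, 0.55 for Colec12, 0.46 for Folr2, 0.45 for Mrc1 and 0.29 for Cd36. The SD of Stab1 was 0.27 in OSR, against 0.068 in OR, 0.031 in YR and 0.083 in YSR. The r with group means removed therefore rests mostly on the 3 OSR arrays. All r values describe the same 12 arrays, which share the group differences given above, and the likeness of a gene is not a test.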

How the data were processed

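RNA of fracture hematoma was measured on 12 arrays (4 groups of 3 pools), and the groups came from the sample labels. The values the authors deposited are intensity signals of 31099 probe sets, not log-transformed, scaled so that every array has the same trimmed mean of 500.2 (the lowest and highest 2% left out). The processing notes name GCOS 1.2, whereas the methods name other summaries, and which of them gave these values was not settled. The log2 of each signal was used after a floor of 1, and 57 control probe sets were left out. Symbols came from the platform annotation: 20832 probe sets had 1 symbol, 436 several and 9831 none. Groups were compared with limma 3.58.1 (intensity trend, 12 arrays together) in R 4.3.3 (data.table package, version 1.17.8), and p-values were adjusted by Benjamini-Hochberg over 31042 probe sets. Python 3.11.15, pandas 2.3.3, numpy 2.4.6 and matplotlib 3.10.9 read promoters and drew plots.

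The receptors and the 12 gene lists were chosen with earlier results of these data known, so none gives independent support. Counts and medians leave out Stab1, a choice made after the files had been read, since its value chose it. In the other lists the 3 genes of largest absolute OR minus YR among probe sets at or above the median (7.16) were named, and other genes only for their role as markers or as stated. The fit was tested on simulated data: estimates were close to the simulated sizes, but at a log2 difference of 4 in OR minus YR (31042 probe sets) 36 of 50 changes were recovered, below the 45 first asked for, with 25 of 25 at or above the median level and 11 of 25 below it. That bound was then replaced by bounds on bias and false calls. No 2 of the 66 pairs of arrays held identical values, and samples of the same number correlated no more than others (median r of deviations 0.019 over 18 pairs, 0.02 over 36 other pairs), so the numbers do not pair them. The number of arrays limits the precision. Alternatives were quantile normalization, a pseudocount of 16, dim probe sets left out, no trend, only the arrays of a pair, the methods' t-test, a replicate block, the mean over a gene's probe sets, 2 arrays left out, each array left out, and the macrophage subtraction.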

Additional observations from a re-analysis of the deposited data

Results flagged for a closer look

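Stab1 was marked because rigid minus semi-rigid fixation had opposite signs in the 2 ages. All OR arrays lay below the OSR arrays (−0.83), and all YR arrays lay above the YSR arrays (0.27), so that the 2 differences were −1.10 apart on the log2 scale. Stab1 was chosen for its value in OR, and this difference between ages was not tested.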

How the results depend on the processing

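Of the 22 alternatives, the subtraction of the mean of 19 macrophage genes, chosen after the data had been examined, moved most values. Under it the receptors other than Stab1 at an unadjusted p under 0.05 were 2 of 6 in OR minus YR (median −0.414), 1 of 6 in OR minus OSR (median −0.2) and 3 of 6 for age. Stab1 became −1.02 in OR minus YR, −0.513 in OR minus OSR, 0.437 in YR minus YSR, −0.545 for age and −0.95 for the interaction. The sign turned for Cd36 (0.083 in OR minus YR, 0.143 in YR minus YSR and 0.164 for age), Colec12 (0.102 in OR minus OSR) and Cd68 (0.046 in OR minus OSR, 0.005 in YR minus YSR and 0.041 for the interaction), none of which had passed the threshold. With the methods' t-test 0 receptors were at an unadjusted p under 0.05 in OR minus OSR, where limma had 3 and 0 passed after adjustment under both. Without OR array 1 and YSR array 1 the sign turned for Cd36 in OSR minus YSR (−0.292) and in the interaction (0.003) and for Lyve1 in YR minus YSR (−0.237). Within a comparison the macrophage subtraction moved all genes by the same amount, so the sign turns under it follow from that amount. The cause of the other changes was not tested.

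With each array left out in turn, the count of receptors at that limit ranged over 0 to 2 in OSR minus YSR (2 without OSR array 3) and over 1 to 3 in the interaction (1 without YSR array 1, 3 without OSR array 1). In OSR minus YSR, Mrc1 ranged over −0.258 to 0.021, Cd36 over −0.292 to 0.459 and Lyve1 over −0.598 to 0.183. In YR minus YSR, Cd36 ranged over −0.443 to 0.307 and Lyve1 over −0.237 to 0.18. For age Cd36 ranged over −0.24 to 0.135, and in the interaction Cd36 over −0.648 to 0.103 and Cd68 over −0.27 to 0.055. Acp5 passed in OR minus YR without OR array 2 (1.768, adjusted p = 0.048), where the adjusted p was 0.146 with all arrays. In OR minus YR, Stab1 ranged over −1.326 to −1.259, Mrc1 over −1.127 to −0.729 and Lyve1 over −1.556 to −1.324.

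The replicate numbers do not pair the arrays. With a replicate block, 5 of 6 receptors were at an unadjusted p under 0.05 in OR minus YR (median −0.685), and Mrc1 had −0.96 (adjusted p = 0.283). No call on a receptor changed under the block. With 3 pools per group, differences below about the size of the intervals given cannot be told from the spread between pools.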
